A study of Mus musculus with 16 samples.

Results

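The complement genes described here are 8 rows of the count table, of 55385 genes in all, found by symbol. They are the 3 chains of C1q (C1qa, C1qb and C1qc), the central components C3 and C4b, the inhibitor Serping1, and the anaphylatoxin receptors C3ar1 and C5ar1, and all 8 passed the filter on low counts. They were measured by polyadenylated RNA sequencing of brain cortex from 16 mice aged 9 months, in 4 groups of 4 with 2 females and 2 males each. 5xFAD-Dp16 mice carried both the 5xFAD transgenes and the Dp16 duplication, 5xFAD mice the transgenes alone, Dp16 mice the duplication alone, and the wild-type group, labelled C57BL/6J, carried neither. 5xFAD mice carry mutant human transgenes of familial Alzheimer's disease, including APP, driven by the Thy1 promoter, which is active mainly in neurons, and form amyloid plaques. Dp16 mice, used to model trisomy 21, carry an added copy of many mouse chromosome 16 genes whose human counterparts lie on chromosome 21, and none of the 8 genes lies on chromosome 16. The labels give no litter or cohort, so the p-values measure the spread between these mice only.

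Complement is a cascade of secreted proteins that tag surfaces for removal. C1q binds a surface and starts the classical pathway, C4 and C3 are then cleaved and deposited, and the small fragments released from C3 and C5 act on the receptors encoded by C3ar1 and C5ar1. In the brain, C1q comes mainly from microglia, the resident macrophages; astrocytes and oligodendrocytes can express C4b; and C1q and C3 are known for their part in the removal of synapses by microglia.

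The C1q genes lie side by side on the minus strand of chromosome 4 (GRCm38, annotation GENCODE M21), C1qb at 136880129 to 136886187, C1qc at 136889804 to 136893065 and C1qa at 136895917 to 136898803, so the 3 genes span 18675 bases. The other members lie on chromosome 17 (C4b at 34728380 to 34743882 and C3 at 57203970 to 57228136), chromosome 6 (C3ar1 at 122847138 to 122856161), chromosome 7 (C5ar1 at 16246743 to 16259540) and chromosome 2 (Serping1 at 84765387 to 84775444), all on the minus strand. RefSeq promoters on build GRCm38.p6 were matched for 5 of the 8 genes. Those of C1qb and C1qc, neighbours whose levels moved together, and of C3, a component of another locus, are shown as the 250 bases before the start site, 5′ to 3′ on the minus strand, at chr4:136886201-136886450, chr4:136892915-136893164 and chr17:57228137-57228386. The RefSeq start sites of C1qc, C5ar1 and C3ar1 lie inside the annotated spans given above, so part of each of these windows lies within its gene. That part is most of the window for C1qc and for C5ar1 (chr7:16259339-16259588), and a few bases for C3ar1 (chr6:122856158-122856407). Capitals mark the motif matches described after the sequences.
C1qb: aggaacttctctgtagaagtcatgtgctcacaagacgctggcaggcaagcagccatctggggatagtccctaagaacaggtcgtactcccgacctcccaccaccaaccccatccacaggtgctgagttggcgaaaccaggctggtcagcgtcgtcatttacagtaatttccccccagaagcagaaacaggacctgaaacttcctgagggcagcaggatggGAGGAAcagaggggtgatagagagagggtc
C1qc: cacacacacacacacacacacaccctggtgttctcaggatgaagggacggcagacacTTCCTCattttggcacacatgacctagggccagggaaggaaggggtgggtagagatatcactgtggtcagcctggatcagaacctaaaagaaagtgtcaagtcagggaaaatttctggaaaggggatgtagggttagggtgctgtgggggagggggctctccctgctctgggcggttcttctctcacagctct
C3: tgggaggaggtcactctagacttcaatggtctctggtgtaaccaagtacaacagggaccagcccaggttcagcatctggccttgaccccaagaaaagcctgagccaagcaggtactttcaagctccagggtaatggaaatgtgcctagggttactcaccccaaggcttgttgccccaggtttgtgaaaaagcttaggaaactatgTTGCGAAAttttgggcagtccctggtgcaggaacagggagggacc
The letters GAGGAA, a core bound by ETS factors such as PU.1, the transcription factor that specifies macrophages and microglia, occurred once in the C1qb window, starting 30 bases before the start site, and once in the C1qc window as its reverse complement TTCCTC, starting 193 bases before it. The C3, C3ar1 and C5ar1 windows did not hold it. Of 32851 promoter windows of the same length, 23.3% held this motif on either strand. The C3 window held the C/EBP-type letters TTGCNNAA once, starting 45 bases before the start site, which 9.56% of all windows also held. No match was found in the 5 windows (with those of C3ar1 and C5ar1) for the interferon response element (2.98% of all windows), TTCNNNGAA, the GAS element (7.02%), or an NF-kB site (0.356%). Both strands were searched, and a match is a description of these letters only.

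Library totals were 16874481 to 22912168 counts, and the sex label matched in 16 of 16 libraries. Thy1, whose promoter drives the transgenes, was 2002 ± 168 CPM (counts scaled by the TMM-normalized library size) in 5xFAD-Dp16, 1699 ± 200 in 5xFAD, 888 ± 120 in Dp16 and 810 ± 62.8 in wild-type cortex (SD, n = 4 each). Wild-type replicate 3 stood apart, with the lowest normalization factor of the 16 libraries (0.858) and the steepest fall of expression with gene length (slope −0.439 on the log2 scales), so comparisons with wild-type are also given without it. The summed level of 12 microglia marker genes, none of them a complement gene, was 1204 ± 364 CPM in 5xFAD-Dp16, 1806 ± 291 in 5xFAD, 574 ± 42.5 in Dp16 and 637 ± 66.5 in wild-type (SD, n = 4 each). In bulk tissue, more cells of a type and more RNA per cell cannot be told apart. In what follows, levels are CPM, differences are log2 fold changes ± SE, and a gene was called where edgeR's quasi-likelihood test over all 17555 genes tested gave a Benjamini-Hochberg adjusted p under 0.05.

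With the transgenes alone, 6 of the 8 genes rose: the 3 C1q chains, C4b, C3 and C3ar1. Among all genes, 1.5% were called higher in 5xFAD than in wild-type cortex. In the same 6 genes each 5xFAD library lay above each wild-type library, a separation that 3.67% of all genes showed. The median log2 fold change of the 8 was 1.84, beside −0.055 over all genes tested, and C5ar1 and Serping1 did not pass.

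**Figure D1:**
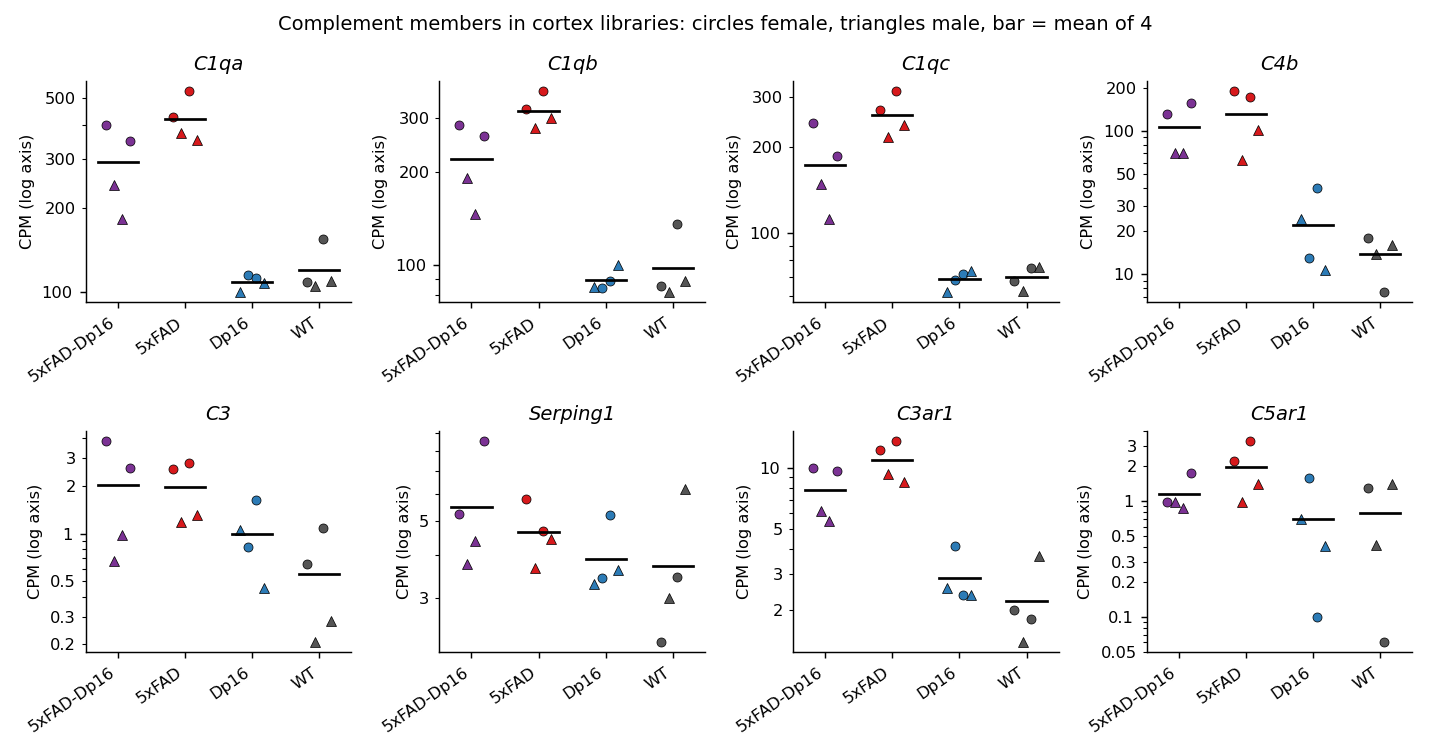
Level of each complement gene in every library, in CPM on a log axis, by group; circles are females, triangles males and bars the mean of 4. The C1q chains, C4b and C3ar1 separate libraries with the transgenes from those without, and within 5xFAD-Dp16 and within 5xFAD both circles lie above both triangles in every panel.

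The C1q chains form the hexameric recognition protein of the classical pathway and were the most abundant of the 8 per length, at 111 ± 11.1, 86.5 ± 14.01 and 56.8 ± 5.46 RPKM for C1qa, C1qb and C1qc in wild-type cortex, beside 2.56 ± 0.960 RPKM for C4b, the next (SD, n = 4). C1qa was 397, 349, 243 and 183 CPM in 5xFAD-Dp16 (females before males here and below), 427, 527, 374 and 353 in 5xFAD, 116, 112, 99.998 and 108 in Dp16, and 109, 155, 106 and 110 in wild-type cortex. All 8 libraries with the transgenes lay above all 8 without, and the 155 CPM belonged to wild-type replicate 3. The difference between 5xFAD and wild-type was 1.80 ± 0.17 for C1qa, with an edgeR adjusted p of 7.56e-05. C1qb averaged 221 ± 63.4 CPM in 5xFAD-Dp16, 316 ± 38.1 in 5xFAD, 89.5 ± 7.35 in Dp16 and 97.9 ± 25.5 in wild-type (SD, n = 4 each), a difference between 5xFAD and wild-type of 1.69 ± 0.19 (edgeR adjusted p = 0.000175). For C1qc the averages were 173 ± 56.2 CPM in 5xFAD-Dp16, 261 ± 42.4 in 5xFAD, 68.7 ± 5.04 in Dp16 and 70.2 ± 6.48 in wild-type, and the difference between 5xFAD and wild-type was 1.88 ± 0.18 (edgeR adjusted p = 7.56e-05). Without wild-type replicate 3 the differences for C1qa, C1qb and C1qc were 1.87, 1.84 and 1.86, and those for C4b, C3 and C3ar1, described below, were 2.79, 2.19 and 2.08, all 6 called.

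The chains kept nearly fixed proportions. Per length (RPKM), the ratio of C1qb to C1qa was 0.731 ± 0.0371 in 5xFAD-Dp16, 0.725 ± 0.0609 in 5xFAD, 0.786 ± 0.0799 in Dp16 and 0.775 ± 0.0458 in wild-type cortex (SD, n = 4 each). The ratio of C1qc to C1qa was 0.513 ± 0.0336, 0.539 ± 0.0375, 0.545 ± 0.0298 and 0.515 ± 0.0750 in the same order of groups. All groups overlapped in both ratios, while the summed level of the 3 chains ran from 247 to 1209 CPM over the 16 libraries.

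C4b, whose product is deposited on a surface after C1q binds, had the largest edgeR log2 fold change of the 8 in 5xFAD against wild-type. It stood at 131, 156, 70.4 and 70.5 CPM in 5xFAD-Dp16 libraries and at 190, 173, 62.5 and 102 in 5xFAD libraries. It stood at 13.1, 39.7, 24.2 and 10.8 CPM in Dp16 libraries and at 17.98, 7.48, 13.96 and 15.98 in wild-type libraries. The lowest library with the transgenes, a 5xFAD male at 62.5 CPM, was above the highest without, a Dp16 female at 39.7 CPM. The difference between 5xFAD and wild-type was 3.10 ± 0.41, or 8.59-fold (edgeR adjusted p = 0.000724). Values of C4b are uncertain because of the near-identical gene C4a: 35.2% of the 50-base windows, 16.5% of the 100-base windows and 8.26% of the 150-base windows of the C4b transcript, 5379 bases long, also occur exactly in C4a.

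C3, the component on which all pathways converge, was scarce in cortex, with 4 to 86 counts per library. It was 3.86, 2.58, 0.671 and 0.977 CPM in 5xFAD-Dp16 and 2.57, 2.79, 1.18 and 1.32 in 5xFAD, against 0.819, 1.64, 1.05 and 0.456 in Dp16 and 0.646, 1.09, 0.207 and 0.282 in wild-type libraries. All 5xFAD libraries lay above all wild-type libraries, and the 5xFAD-Dp16 males lay within the range of the Dp16 group. The difference between 5xFAD and wild-type was 1.93 ± 0.41 (edgeR adjusted p = 0.0223). The call was lost without the sex term (adjusted p = 0.284 in edgeR), with only these 2 groups in the fit (0.0740), with limma on log2(RPKM + 1) (0.0921), and without any one of wild-type replicates 1, 2 and 4 or 5xFAD replicates 3 and 4 (0.0593 to 0.0987).

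C3ar1 encodes the receptor for the C3a fragment, carried in brain mainly by microglia. It was 10.05, 9.64, 6.13 and 5.50 CPM in 5xFAD-Dp16 and 12.3, 13.6, 9.37 and 8.56 in 5xFAD, against 4.14, 2.38, 2.58 and 2.37 in Dp16 and 2.00, 1.81, 1.40 and 3.71 in wild-type libraries. The 8 libraries with the transgenes all lay above the 8 without. The difference between 5xFAD and wild-type was 2.24 ± 0.30, or 4.71-fold (edgeR adjusted p = 0.000841).

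C5ar1, the receptor for C5a, and Serping1, which encodes C1 inhibitor, the protease inhibitor that restrains the start of the classical pathway, overlapped between all groups. C5ar1 averaged 1.15 ± 0.399 CPM in 5xFAD-Dp16, 1.99 ± 1.03 in 5xFAD, 0.700 ± 0.642 in Dp16 and 0.794 ± 0.661 in wild-type (SD, n = 4 each), with 1 to 76 counts per library. The difference between 5xFAD and wild-type was 1.18 ± 0.72 (edgeR adjusted p = 0.877), 0.72 ± 0.60 without wild-type replicate 3, which held 1 count, and 1.82 ± 0.77 without wild-type replicate 4, which held 30. Serping1 averaged 5.48 ± 2.13 CPM in 5xFAD-Dp16, 4.64 ± 0.894 in 5xFAD, 3.88 ± 0.897 in Dp16 and 3.72 ± 1.73 in wild-type, a difference between 5xFAD and wild-type of 0.28 ± 0.32 (edgeR adjusted p = 0.955) that was 0.19 without wild-type replicate 3. Its highest library, a 5xFAD-Dp16 female at 8.55 CPM, also had the highest summed level of 6 choroid plexus markers of all libraries (2293 CPM), and the part of these cells in its level was not tested.

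In mice that carry the duplication, the 3 C1q chains and C4b rose with the transgenes. These 4 of the 8 genes were called higher in 5xFAD-Dp16 than in Dp16 cortex, beside 0.387% of all genes. The differences were 1.38 ± 0.17 for C1qa (edgeR adjusted p = 0.00165), 1.27 ± 0.18 for C1qb (0.00500), 1.30 ± 0.17 for C1qc (0.00309) and 2.24 ± 0.39 for C4b (0.0175). C3ar1 was at 1.43 ± 0.29 with an edgeR adjusted p of 0.0511, and its groups did not overlap, as for 2.21% of all genes. C3 was at 0.79 ± 0.39, C5ar1 at 0.71 ± 0.72 and Serping1 at 0.48 ± 0.32, each with an edgeR adjusted p of 0.980. The C4b call was lost without Dp16 replicate 2 or 4 or 5xFAD-Dp16 replicate 1 or 4 (adjusted p = 0.0704 to 0.0839 in edgeR), and C3ar1 passed in 6 of 25 alternatives, DESeq2 and the fits without wild-type replicate 3 or 4 among them.

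Against wild-type, 5xFAD-Dp16 cortex had higher levels of 5 of the 8 genes, beside 0.496% of all genes called higher. The differences were 1.25 ± 0.17 for C1qa (edgeR adjusted p = 0.00235), 1.16 ± 0.18 for C1qb (0.00721), 1.26 ± 0.17 for C1qc (0.00246), 2.81 ± 0.41 for C4b (0.00358) and 1.74 ± 0.30 for C3ar1 (0.0137). C3, at 1.81 ± 0.41, missed the threshold (edgeR adjusted p = 0.0728) and passed in 5 of 25 alternatives, namely DESeq2 (0.00476), no filter on low counts (0.0282), the length slope (0.0216), and without Dp16 replicate 1 or 2 (0.0413 and 0.0452). Without wild-type replicate 3 the differences were 1.33, 1.31 and 1.24 for C1qa, C1qb and C1qc, 2.51 for C4b, 1.58 for C3ar1 and 2.08 for C3, with the first 5 called. With only these 2 groups in the fit, C4b alone of the 8 passed, and the adjusted p was 0.131 to 0.167 for the C1q chains and 0.232 for C3ar1 in edgeR. The C3ar1 call was also lost without wild-type replicate 1 or 2 (edgeR adjusted p = 0.0852 and 0.0570).

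**Figure D2:**
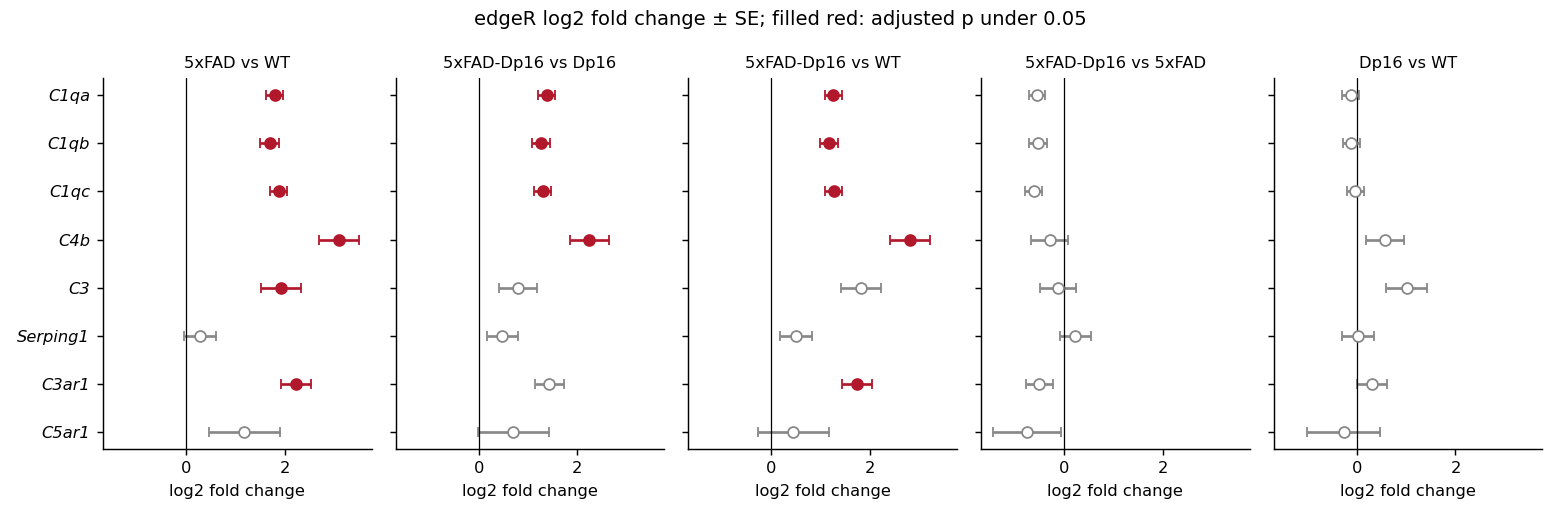
Log2 fold change of each complement gene in 5 comparisons, tested group named first; points are edgeR estimates, bars their SE, and filled red points have an adjusted p under 0.05. The C1q chains and C4b are filled in all 3 comparisons of mice with against mice without the transgenes, and no gene is filled in 5xFAD-Dp16 against 5xFAD or in Dp16 against wild-type.

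Whether the duplication changes these genes was asked with and without the transgenes. In 5xFAD-Dp16 against 5xFAD cortex edgeR called 0 of the 8 genes, beside 0.0057% of all genes, and 3 of the 8 had an unadjusted p under 0.05, as did 3.59% of all genes. These were the C1q chains, at −0.55 ± 0.17 for C1qa (unadjusted p = 0.00509), −0.53 ± 0.18 for C1qb (0.00985) and −0.61 ± 0.17 for C1qc (0.00267), each with an edgeR adjusted p of 1.00. DESeq2 also called 0, and with the length slope of each library as a covariate C1qa passed at −0.55 ± 0.12 (edgeR adjusted p = 0.0411). For C1qa, 3 of the 4 5xFAD-Dp16 libraries were below all 5xFAD libraries, and the fourth, a female at 397 CPM, was within their range. The microglia marker sum ran alongside, at 825 to 1650 CPM in 5xFAD-Dp16 and 1567 to 2194 CPM in 5xFAD. Estimates were below 0 for all 12 microglia, all 8 astrocyte and all 6 oligodendrocyte markers, with medians of −0.54, −0.37 and −0.19 and 0 called by edgeR, and their part in the C1q values was not tested. The other members were at −0.29 ± 0.37 for C4b, −0.12 ± 0.37 for C3, −0.50 ± 0.28 for C3ar1, −0.74 ± 0.69 for C5ar1 and 0.23 ± 0.32 for Serping1.

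Without the transgenes, edgeR called 0 of the 8 genes in Dp16 against wild-type cortex, as did DESeq2, beside 0.0057% of all genes in edgeR. C3 alone had an unadjusted p under 0.05, as did 2.2% of all genes. It was at 1.01 ± 0.41 (unadjusted p = 0.0265, adjusted p = 1.00 in edgeR), from 10 to 33 counts per Dp16 library and 4 to 18 per wild-type library. C4b was at 0.57 ± 0.38, and the C1q chains at −0.12 ± 0.17, −0.11 ± 0.18 and −0.031 ± 0.17. Dp16 replicate 3 had the highest C4b, C3 and Serping1 of its group, at 39.7, 1.64 and 5.21 CPM. Averaged over mice with and without the transgenes, the Dp16 effect was −0.34 ± 0.12 for C1qa, −0.32 ± 0.13 for C1qb and −0.32 ± 0.12 for C1qc, with 0 of the 8 genes called by edgeR beside 0.0968% of all genes. The 3 chains had an unadjusted p under 0.05 (0.0123, 0.0244 and 0.0176), as did 4.29% of all genes.

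The interaction of both genotypes, which asks whether the transgene effect depends on the duplication, was called for 0 of the 8 by edgeR and by DESeq2. Its estimates were below 0 for 7 of the 8, with a median of −0.53 beside 0.042 over all genes tested. C1qc had the one unadjusted p under 0.05, beside 1.36% of all genes (−0.58 ± 0.24, unadjusted p = 0.0293, adjusted p = 1.00 in edgeR).

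Of the 12 microglia markers, 8 were called higher in 5xFAD than in wild-type and 2 in 5xFAD-Dp16 than in Dp16, and all 12 estimates were above 0 in both comparisons. Each member was therefore also expressed relative to the mean log2 CPM of the 12 markers. On this scale C4b was 1.87 higher and C3ar1 1.00 higher in 5xFAD than in wild-type cortex, C1qc was 0.57 higher, and none of the 3 overlapped between the groups, a separation seen in 0.399% of all genes. C1qa (0.50 higher) and C1qb (0.40 higher) overlapped through wild-type replicate 3, the one library of its group that reached the 5xFAD range. In 5xFAD-Dp16 against Dp16, C4b was 1.48 higher, C1qa 0.46, C1qb 0.36 and C1qc 0.37 higher without overlap, beside 0.37% of all genes. C3ar1 was 0.51 higher there, with overlap. Between 5xFAD-Dp16 and 5xFAD the relative levels of C1qa, C1qb and C1qc differed by −0.0024, 0.013 and −0.073, with overlap. Serping1 was 0.92 lower in 5xFAD than in wild-type relative to the markers without overlap, which 69.1% of all genes also showed.

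**Figure D3:**
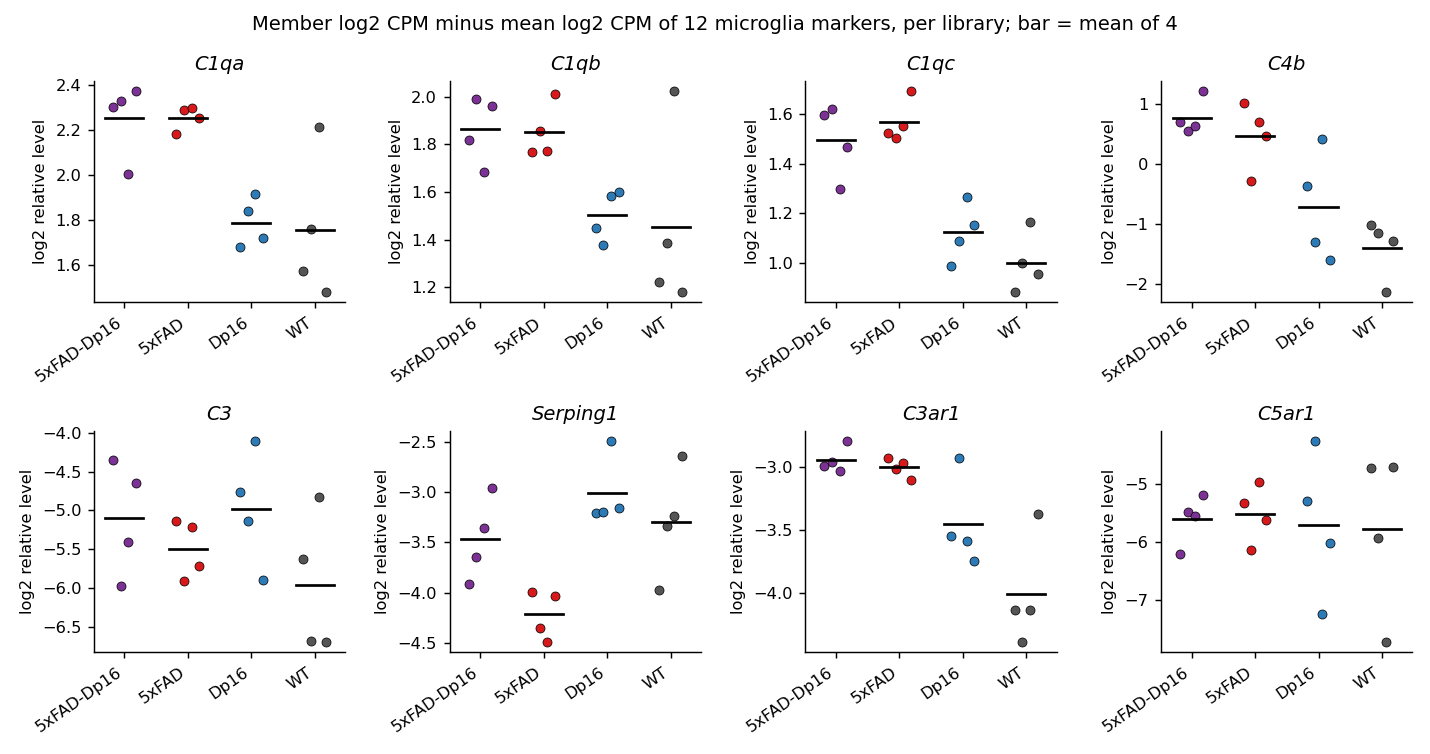
Log2 CPM of each complement gene minus the mean log2 CPM of 12 microglia markers, one point per library and a bar at the mean of 4. C1qc and C3ar1 of 5xFAD libraries lie above all wild-type libraries, C1qa and C1qb do so but for wild-type replicate 3, and Serping1 lies lower in 5xFAD than in every other group.

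C4b can also come from astrocytes, and of 8 astrocyte markers, 2 were called higher in 5xFAD than in wild-type, Gfap at 3.04 ± 0.26 and Aqp4 at 0.70 ± 0.17 (edgeR adjusted p = 5.01e-05 and 0.0459). Relative to the mean of the 8 astrocyte markers, C4b was 2.44 higher in 5xFAD than in wild-type and 1.92 higher in 5xFAD-Dp16 than in Dp16. Neither pair overlapped, beside 0.985% and 0.746% of all genes. Markers of blood monocytes and neutrophils summed to 1.29 to 5.73 CPM in 5xFAD-Dp16, 1.86 to 5.67 in 5xFAD, 0.875 to 3.83 in Dp16 and 2.06 to 3.38 in wild-type libraries, and those of border macrophages to 4.48 to 7.45, 6.51 to 9.30, 3.81 to 7.89 and 4.88 to 6.94 CPM in the same order, with overlap between groups in both. Of the 6 monocyte and neutrophil markers only 3 passed the filter on low counts. In the 5xFAD effect averaged over mice with and without the duplication, 1 of these 3 was called higher, beside 2.18% of all genes. Of the 6 border macrophage markers 0 were called there.

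Females were higher than males for all 8 complement genes in mice with the transgenes, a pattern noticed in the data and tested afterwards. Both females lay above both males in the 5xFAD-Dp16 group and in the 5xFAD group for 8 of the 8 genes, beside 5.88% of all genes, and 7.03% of all genes showed the opposite. Taken one group at a time the same order was common, in 16.4% of all genes for 5xFAD-Dp16 and 29.3% for 5xFAD. The length slope also separated the sexes in 5xFAD, at 0.156 and 0.124 in females and −0.129 and −0.0654 in males. In 5xFAD-Dp16 it did not, at 0.019 and 0.0786 in females and −0.112 and 0.157 in males. Sex and slope cannot be told apart within 5xFAD. With the slope as a covariate, edgeR called C1qa (0.70 ± 0.09), C1qb (0.59 ± 0.09) and C1qc (0.59 ± 0.11) in females against males with the transgenes. No other member was called in that fit. Calls among all 17555 genes rose as well, to 44 higher and 9 lower, beside 1 and 4 without the covariate. In the Dp16 and wild-type groups together 0 of the 8 showed it, beside 1.29% of all genes; C1qa showed it in Dp16 alone (9.43% of all genes) and C3 in wild-type alone (7.01%). The margin was smallest for C5ar1 in 5xFAD-Dp16, where the lower female was at 0.987 CPM and the higher male at 0.985. For C4b the 5xFAD-Dp16 females were at 131 and 156 CPM and the males at 70.4 and 70.5, and the 5xFAD females at 173 and 190 CPM and the males at 62.5 and 102. The estimates for females against males with the transgenes were 1.53 ± 0.37 for C3, 1.08 ± 0.36 for C4b, 0.88 ± 0.74 for C5ar1, 0.64 ± 0.27 for C3ar1, 0.60 ± 0.16 for C1qa, 0.57 ± 0.28 for Serping1, 0.54 ± 0.16 for C1qc and 0.47 ± 0.17 for C1qb. No gene of the 8 passed in edgeR (adjusted p = 0.764 for C3 and 0.804 for the others), beside 0.0285% of all genes called. Of the 8, 6 had an unadjusted p under 0.05 in edgeR, beside 4.93% of all genes. DESeq2 called C1qa and C3, beside 43 genes higher and 9 lower of the 16534 to which it gave an adjusted p.

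The microglia markers moved the same way with sex. Their sum was 1332 and 1650 CPM in 5xFAD-Dp16 females and 825 and 1006 in males, and 1865 and 2194 CPM in 5xFAD females and 1567 and 1598 in males, a separation of the sexes that astrocyte and oligodendrocyte markers also showed. Astrocyte markers summed to 5368 and 5495 CPM in 5xFAD-Dp16 females and 4167 and 4809 in males, and to 6985 and 7770 CPM in 5xFAD females and 5041 and 5064 in males. Oligodendrocyte markers summed to 7948 and 8390 CPM in 5xFAD-Dp16 females and 7008 and 7106 in males, and to 9853 and 9963 CPM in 5xFAD females and 7826 and 9210 in males. The part of these cell types in the sex pattern was not tested. Choroid plexus markers summed to 790 and 2293 CPM in the 5xFAD-Dp16 females and 13.4 and 36.2 in the males, but to 18.4 and 21.5 CPM in the 5xFAD females and 38.4 and 632 in the males. Without the transgenes, the estimates for females against males ran from −0.19 ± 0.29 for Serping1 to 1.25 ± 0.41 for C3, with 0 called by edgeR and C3 alone at an unadjusted p under 0.05 (unadjusted p = 0.00989; 2.25% of all genes). Whether the 5xFAD effect itself differed between females and males was tested directly: edgeR called 0 of the 8 (adjusted p = 0.634 to 0.820), all 8 estimates were above 0, and C1qc, at 0.49 ± 0.22, had the one unadjusted p under 0.05 (unadjusted p = 0.0475; 4.57% of all genes).

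Beyond these 8, 54 other complement genes were looked up and 35 were tested. In the 5xFAD effect averaged over mice with and without the duplication, 6 of the 8 members rose in edgeR, beside 2.18% of all genes called. Among the receptor genes and subunits tested, Itgb2, Itgam and C5ar2 rose and Cd93 did not pass. Itgax, a chain of complement receptor 4, passed the filter on low counts through the mice with the transgenes and so had to differ; it was at 5.85 ± 0.44, from 110 to 469 counts per 5xFAD-Dp16 library and 157 to 783 per 5xFAD library, against 1 to 11 per Dp16 library and 0 to 6 per wild-type library. Itgb2, the chain shared by complement receptors 3 and 4, was at 1.86 ± 0.20, and Itgam, its partner in receptor 3, at 1.06 ± 0.20 (edgeR adjusted p = 4.60e-05 and 0.00760). C5ar2, a second C5a receptor, was at 1.26 ± 0.30 (edgeR adjusted p = 0.0347).

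Among the regulators, Clu, which encodes clusterin, was at 0.50 ± 0.18, Cd55, a decay-accelerating factor, at −0.52 ± 0.28, Vtn, vitronectin, at 0.28 ± 0.19 and C1qbp at −0.17 ± 0.12, none called. None of 8 classical and lectin genes passed, C2, the protease that joins C4b in the C3 convertase, being at −0.77 ± 0.40, and none of 4 alternative and terminal genes, with Hc, which encodes C5, at −1.64 ± 0.59 (unadjusted p = 0.0141) and C7 at −0.69 ± 0.55.

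**Figure D4:**
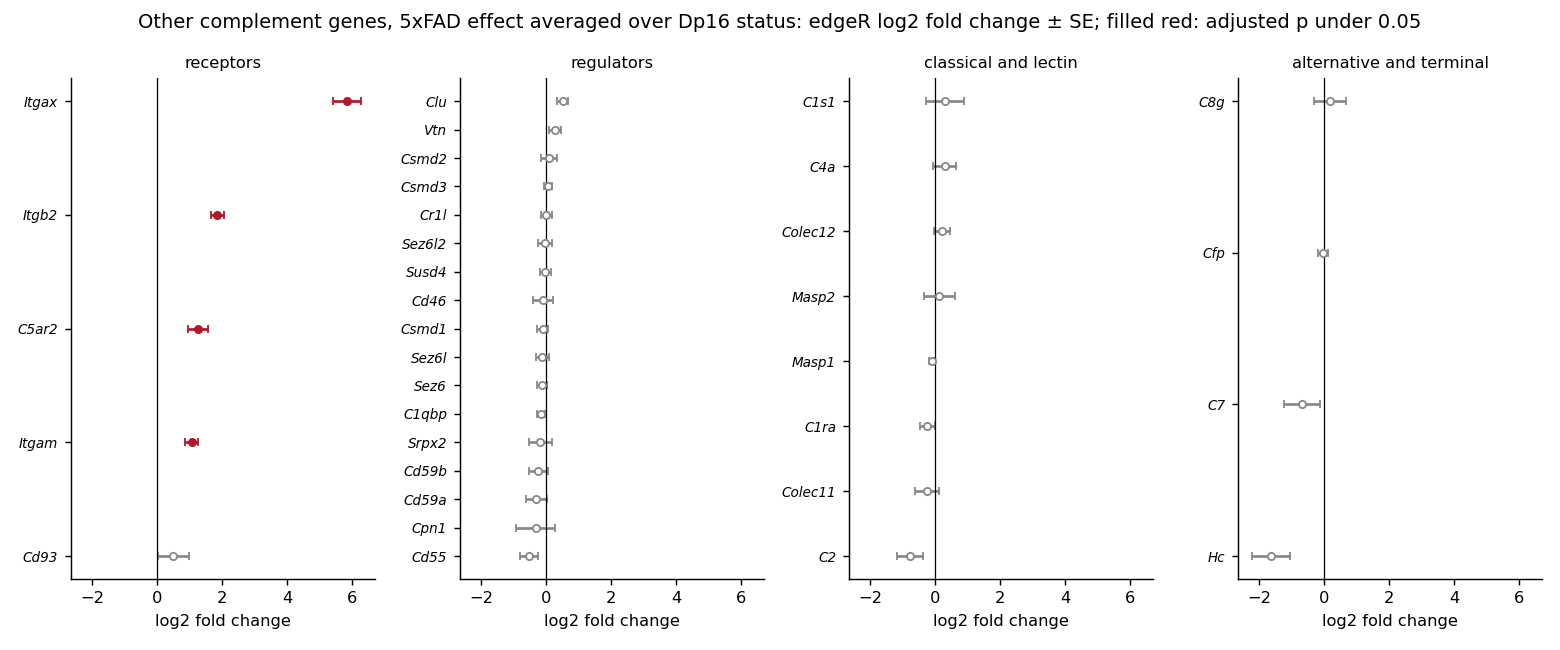
Averaged 5xFAD effect (log2 fold change ± SE) of other complement genes tested, grouped by role; filled red points have an edgeR adjusted p under 0.05. Itgax, Itgb2, Itgam and C5ar2 among the receptors are filled, and none of the genes shown in the other panels is. Itgax passed the filter on low counts through the mice with the transgenes and so had to differ.

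The genes whose log2 CPM followed each member most closely over the 16 libraries are given by Pearson's r as a description; the libraries share their groups, and r over all 16 includes the difference between mice with and without the transgenes. For C1qa, C1qb and C1qc the first was Ctss, cathepsin S and one of the microglia markers, at r = 0.988, 0.987 and 0.992, then Ptprc and Ctsd for C1qa, Ly86 and Fcer1g for C1qb, and Mpeg1 and Ptprc for C1qc. Within the 8 libraries without the transgenes r between C1qa and Ctss was 0.443, and within the 8 with them 0.982. C4b was followed by Lgals3bp (r = 0.975), the MHC class I gene H2-K1 (0.964) and Slc14a1 (0.962). C3ar1 was followed by Ptpn6 (0.965), Fcgr2b and Fermt3, and C3 by Rab7b (0.894), Lime1 and Mamdc2. C5ar1 was followed by Add3 (0.922, and 0.898 within the 8 libraries without the transgenes), Myo6 and Ctnnd1, with its lowest counts, 1 and 2, in wild-type replicate 3 and Dp16 replicate 3, among the 3 libraries of lowest length slope. For Serping1 the closest, Rab13, reached 0.761, and the next were Ifit3b and Slc26a2.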

How the data were processed

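Polyadenylated RNA of cortex was made into strand-specific libraries and sequenced as paired ends, per the labels' protocols. The submitters' processing notes name HISAT2 2.1.0, SAMtools 1.5, HTSeq 0.6.1 and build GRCm38; no source used here says whether the counting was by strand. The authors deposited raw read counts per gene and RPKM values, which are those counts scaled by gene length and library total. The 8 members and all lists, markers and tests were chosen with earlier results of these data known.

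Counts were fitted with edgeR 4.0.16 (R 4.3.3): TMM normalization, filterByExpr with a minimum count of 10, robust quasi-likelihood, group and sex as terms over 16 libraries, Benjamini-Hochberg adjustment over 17555 genes. The procedure was tested on simulated data with a shared spread for all genes and changes set only in genes of higher counts. That simulation did not cover changes in genes of low counts such as C3 and C5ar1. Named genes were the members, the 12 other complement genes of smallest p in the averaged 5xFAD effect, and 3 genes of largest correlation per member; results on some of them are not reported here. Alternatives were DESeq2 1.42.0, RLE size factors, no filter, no sex term, a replicate block, limma-trend 3.58.1 on log2(RPKM + 0.1) and log2(RPKM + 1), a length-slope covariate, 2-group fits and each library left out. Comparisons of females with males within mice with or without the transgenes were chosen after seeing the data, and like the sex difference of the 5xFAD effect come from a fit with a mean for each group and sex. Replicate pairs differed by more than sampling noise, at a chi-square of 15.8 to 271 for each degree of freedom.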

Additional observations from a re-analysis of the deposited data

Results flagged for a closer look

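Of 32 sets of 4 libraries (8 genes in 4 groups), 5 held one library far from the other 3 by Dixon's criterion for 4 samples, which chance alone marks in about 1 of 20 groups. C1qa and C1qb were both high in wild-type replicate 3, at 155 CPM against 106 to 110 in the other wild-type libraries and at 136 CPM against 81.5 to 88.9. This is the library with the lowest normalization factor and length slope. C3ar1 stood at 4.14 CPM in Dp16 replicate 2, a female, against 2.37 to 2.58 in the other Dp16 libraries. C5ar1 stood at 1.74 CPM in 5xFAD-Dp16 replicate 4, a female, against 0.874 to 0.987 in the others of its group. Serping1 stood at 5.21 CPM in Dp16 replicate 3, a female, against 3.28 to 3.60 in the others of its group.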

How the results depend on the processing

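Over the log2 fold changes of the members, leaving out a library gave 1358 values of the same direction and call, 11 that lost and 4 that gained a call, and 35 of opposite sign; the other alternatives gave 685, 8, 14 and 13. C1qa, C1qb and C1qc passed in 25 of 25 alternatives in 5xFAD against wild-type and in 5xFAD-Dp16 against Dp16. Same-numbered libraries of different groups correlated in their deviations at −0.354 to 0.514, replicate 1 being above 0 in all its pairs and the other numbers of mixed sign, and 7 of 16 libraries matched their own number best; the labels give the numbers no meaning, so they were not taken to pair the mice. The replicate block left the counts of calls among the members and the other complement genes as they were, with 6 members called in 5xFAD against wild-type and 4 in 5xFAD-Dp16 against Dp16.

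Counts moved as follows. Without the filter on low counts, 1 other complement gene was called in 5xFAD-Dp16 against 5xFAD (Itgax), 1 in the interaction and 1 in the sex difference of the 5xFAD effect. In females against males with the transgenes, 1 member (C4b) and 1 other gene were called. Calls among all genes, 30908 without the filter, rose as well. They were 25 higher and 17 lower in 5xFAD-Dp16 against 5xFAD (1 and 0 with the filter) and 3 and 22 in the interaction (0 and 0). They were 39 and 24 in the sex difference (0 and 0) and 53 and 10 in females against males with the transgenes (1 and 4). With the length slope, 5 other genes were called in 5xFAD against wild-type, 4 in 5xFAD-Dp16 against Dp16 and 4 in 5xFAD-Dp16 against wild-type, 1 member in 5xFAD-Dp16 against 5xFAD, and 3 members in females against males with the transgenes, for which DESeq2 called 2. The length slope raised calls among all 17555 genes as well, to 700 higher and 226 lower in 5xFAD against wild-type (264 and 2 without it), 211 and 1 in 5xFAD-Dp16 against Dp16 (68 and 0), 342 and 16 in 5xFAD-Dp16 against wild-type (87 and 1), 72 and 50 in 5xFAD-Dp16 against 5xFAD (1 and 0) and 44 and 9 in females against males with the transgenes (1 and 4). With only the 2 groups compared, which leaves fewer libraries in the fit, 1 other gene was called in 5xFAD-Dp16 against Dp16, and 1 member and 1 other gene in 5xFAD-Dp16 against wild-type. Those fits called 44 of 16659 and 9 of 16361 genes, all higher. Leaving out a library gave 1 to 3 other genes in 5xFAD-Dp16 against Dp16, and 0 to 6 in the sex difference. The 6 came without wild-type replicate 1, a fit that leaves 1 wild-type female and that called 1781 genes higher and 1571 lower of 17969 tested.

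Signs turned only in comparisons where the gene was not called, and the cause was not tested. In 5xFAD-Dp16 against 5xFAD, C3 was 0.041 without the sex term, 0.0024 with limma on log2(RPKM + 1) and −0.38 to 0.055 with a library left out, where Serping1 was −0.054 to 0.35. In Dp16 against wild-type, C1qc was 0.00030 and 0.00025 with limma on log2(RPKM + 0.1) and log2(RPKM + 1), C5ar1 0.44 with the length slope, and with a library left out C1qb was −0.21 to 0.035, C1qc −0.11 to 0.092, C5ar1 −0.89 to 0.39 and Serping1 −0.23 to 0.48. For Dp16 averaged over 5xFAD status these ranges were −0.17 to 0.16 for C3ar1, −0.0033 to 0.26 for C4b and −0.0042 to 0.34 for Serping1. For the interaction they were −1.12 to 0.10 for C5ar1 and −0.27 to 0.44 for Serping1, and for the sex difference −0.059 to 0.60 for C3, while C5ar1 was −0.0047 there with the length slope. In females against males without the transgenes, C3ar1 was 0.22 with the replicate block and 0.050 with the length slope; with limma on log2(RPKM + 0.1) and log2(RPKM + 1) C1qc was −0.035 and −0.035, C5ar1 −0.31 and −0.013, and C4b −0.013 with the first. With a library left out, C1qb was −0.048 to 0.27, C1qc −0.020 to 0.12, C3ar1 −0.27 to 0.42, C4b −0.33 to 0.52, C5ar1 −1.61 to 0.65 and Serping1 −0.39 to 0.12. Fits without the sex term give no sex comparison, and 2-group fits were made for the 5 pairwise comparisons. Low counts limit C3 and C5ar1, and 4 mice per group with 2 of each sex leave sex comparisons little precision.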
